A study of Rattus norvegicus with 9 samples.

Results

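Liver mRNA of the urea cycle and glutamine enzymes was described across rats. The set held 9 genes, chosen by name from what their proteins do: Cps1, Otc, Ass1, Asl, Arg1, Nags, Slc25a15, Glul and Gls2. All 9 of 9 had a row among the 32883 genes of the file. The samples were livers of 9 male Sprague-Dawley rats in 3 groups of 3. Normal control rats (N1, N12 and N3) were on a normal diet. DEN model rats (M13, M17 and M24) received 0.01% diethylnitrosamine, a liver carcinogen that is activated in hepatocytes, by weekly intraperitoneal injection over a period of 16 weeks. PZH administration rats (G27, G28 and G42) received the same DEN and, besides, Pien-Tze-Huang (PZH), a Chinese patent medicine. The groups were read from the letter of the sample titles together with the study's methods, since the treatment tag in the labels reads PZH for the M rats too. Which PZH dose the sequenced rats had, and in which week they were killed, is not given in the sources used here. The chemically induced model mixes injury, fibrosis and tumour, and each library was made from a piece of liver tissue without sorting of cells.

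The urea cycle turns ammonia into urea, and the liver is the organ in which the whole cycle runs. It starts in the mitochondria of periportal hepatocytes, where carbamoyl phosphate is made and joined to ornithine, and it ends in the cytosol, where arginine is split into urea and ornithine. Glutamine is handled around it by a pair of enzymes with opposite places in the lobule: the glutaminase Gls2 frees ammonia from glutamine in periportal cells, and the glutamine synthetase Glul traps the remaining ammonia in the last hepatocytes around the central vein. A fall of this enzyme programme is known from injured and malignant liver in general.

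The upstream sequence was available in RefSeq windows (rat build GRCr8) for 8 of the 9 genes, in 10 windows, because Glul and Gls2 had 2 annotated starts each. Shown here are the 250 bases before the start of Cps1 and Otc, the entry enzymes of the cycle, and of both starts of Glul, the gene with the smallest fitted changes of the 9 in both comparisons with the DEN model. Each is written 5′ to 3′ in the direction of the gene, and capitals mark exact matches to the motifs searched. The Cps1 window lies at chr9:76063613-76063862 on the plus strand, the Otc window at chrX:15202474-15202723 on the minus strand, and the Glul windows at chr13:68519250-68519499 and chr13:68575816-68576065 on the plus strand.
Cps1: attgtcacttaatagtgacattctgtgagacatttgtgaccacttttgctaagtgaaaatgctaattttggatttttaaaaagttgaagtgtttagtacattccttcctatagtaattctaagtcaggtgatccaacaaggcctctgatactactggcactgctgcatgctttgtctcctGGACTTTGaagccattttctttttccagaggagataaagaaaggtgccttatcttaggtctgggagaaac
Otc: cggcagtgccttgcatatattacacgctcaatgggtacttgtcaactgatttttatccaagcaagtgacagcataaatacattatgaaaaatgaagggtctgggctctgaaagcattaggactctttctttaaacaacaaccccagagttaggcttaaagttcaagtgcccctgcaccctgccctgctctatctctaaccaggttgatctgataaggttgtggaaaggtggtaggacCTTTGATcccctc
Glul, window 1: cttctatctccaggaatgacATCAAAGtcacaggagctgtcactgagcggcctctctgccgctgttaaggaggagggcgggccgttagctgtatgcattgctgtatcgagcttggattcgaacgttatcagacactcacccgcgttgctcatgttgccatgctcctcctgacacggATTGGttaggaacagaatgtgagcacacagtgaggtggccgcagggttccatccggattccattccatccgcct
Glul, window 2: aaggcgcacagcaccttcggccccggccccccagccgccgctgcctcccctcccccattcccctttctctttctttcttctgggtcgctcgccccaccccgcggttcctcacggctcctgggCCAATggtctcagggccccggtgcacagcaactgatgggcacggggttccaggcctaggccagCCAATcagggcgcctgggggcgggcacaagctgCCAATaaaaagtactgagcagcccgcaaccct

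The motifs were searched on both strands, and none of the matches shown overlapped another. The Cps1 window held CAAAGTCC, a site type of the hepatocyte factor HNF4, on the opposite strand with its first base 70 bases before the start. This motif was in 1 of the 10 windows and in 1.14% of all 33469 windows of the same length. CTTTGAT, a TCF/LEF type site, was in 2 of 10 windows, 13 bases before the start of Otc and, on the opposite strand, 230 bases before the first start of Glul, against 3.15% of all windows. CCAAT was in 4 of 10 windows (34.0% of all), with 3 copies in the second Glul window, 128, 65 and 32 bases before the start. TATAAA was in 1 window, that of Ass1 (12.9% of all), and TTGCNNAA, TGACGTCA and TGTTCT were in 0 of the 10 windows, against 9.22%, 1.59% and 17.5% of all windows. These are matches of letters and no binding was measured.

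The libraries held 14922973 to 27161496 counts, and 3 counts, the floor used here, corresponded to 0.125 to 0.252 CPM (the count of a gene scaled to a common library size) after scaling by the trimmed mean of M-values (TMM). The labelled tissue carried its defining markers, and in the normal control rats the 10 hepatocyte markers summed to 167348 to 181724 CPM. The same sum was 36660 to 83587 CPM in the DEN model rats and 139124 to 181058 CPM in the PZH administration rats. The 5 bile duct markers summed to 13.1 to 20.8 CPM in normal control, 198 to 722 CPM in DEN model and 74.0 to 87.2 CPM in PZH administration rats, and the 5 stellate cell markers to 169.9 to 248, 835 to 2488 and 487 to 580 CPM. Macrophage and leukocyte markers (320 to 660, 295 to 372 and 176 to 426 CPM) and the 3 endothelial markers found of 4 (170 to 201, 131 to 219 and 158 to 225 CPM) overlapped between the groups. No marker was at 0 in every rat of a group. In DEN model against normal control, 5 of 10 hepatocyte markers fell and 5 of 5 bile duct and 4 of 5 stellate cell markers rose (edgeR, adjusted p under 0.05). Of all 14255 genes tested, 20.5% fell and 25.3% rose in this comparison. Of 5 macrophage and leukocyte markers, Ptprc rose (log2 fold change 1.75) and Clec4f and Marco fell (-1.28 and -2.72), and of the 3 endothelial markers Vwf rose (2.48) and Lyve1 fell (-0.70). In bulk tissue, fewer hepatocytes and less enzyme mRNA in each hepatocyte cannot be told apart, and the part of these shifts in the enzyme results was not tested beyond the alternative scaling given with them.

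Levels can be ranked between genes only per length of transcript, in the deposited FPKM (fragments scaled by transcript length and library size). In normal control liver the means were 988 ± 235 FPKM for Cps1, 976 ± 130.2 for Ass1, 703 ± 219 for Arg1, 343 ± 52.4 for Asl, 264 ± 67.3 for Slc25a15, 184 ± 56.1 for Otc, 111 ± 25.0 for Gls2, 83.4 ± 44.5 for Glul and 33.8 ± 6.06 for Nags (SD, n = 3). The ranges over the 3 rats of neighbours in this order overlapped, except those of Arg1 and Asl and those of Glul and Nags. Cps1 was the 49th to 82nd most abundant gene by FPKM in the normal control rats and the 50th to 151st in the DEN model rats. Nags went from rank 1424 to 1764 in normal control to rank 3233 to 8590 in DEN model rats, and Gls2 from rank 437 to 708 to rank 935 to 4834. Glul held rank 509 to 1232 in normal control and rank 472 to 575 in DEN model rats. Its mean of 131 ± 9.12 FPKM in the DEN model stood above those of Otc (97.2 ± 44.5), Slc25a15 (87.1 ± 36.1) and Gls2 (34.7 ± 30.3). In normal control liver its mean trailed all of these. The order of means did not hold in every rat. In M17 Otc (148.5 FPKM) was above Glul (129.8), and in N12 Glul (131.4) was above Gls2 (106.2). In PZH administration rats the order ran from Cps1 (929 ± 296 FPKM) over Arg1 (775 ± 106) and Ass1 (721 ± 22.5) to Gls2 (83.5 ± 9.30), Glul (82.8 ± 25.5) and Nags (26.2 ± 2.85).

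**Figure D1:**
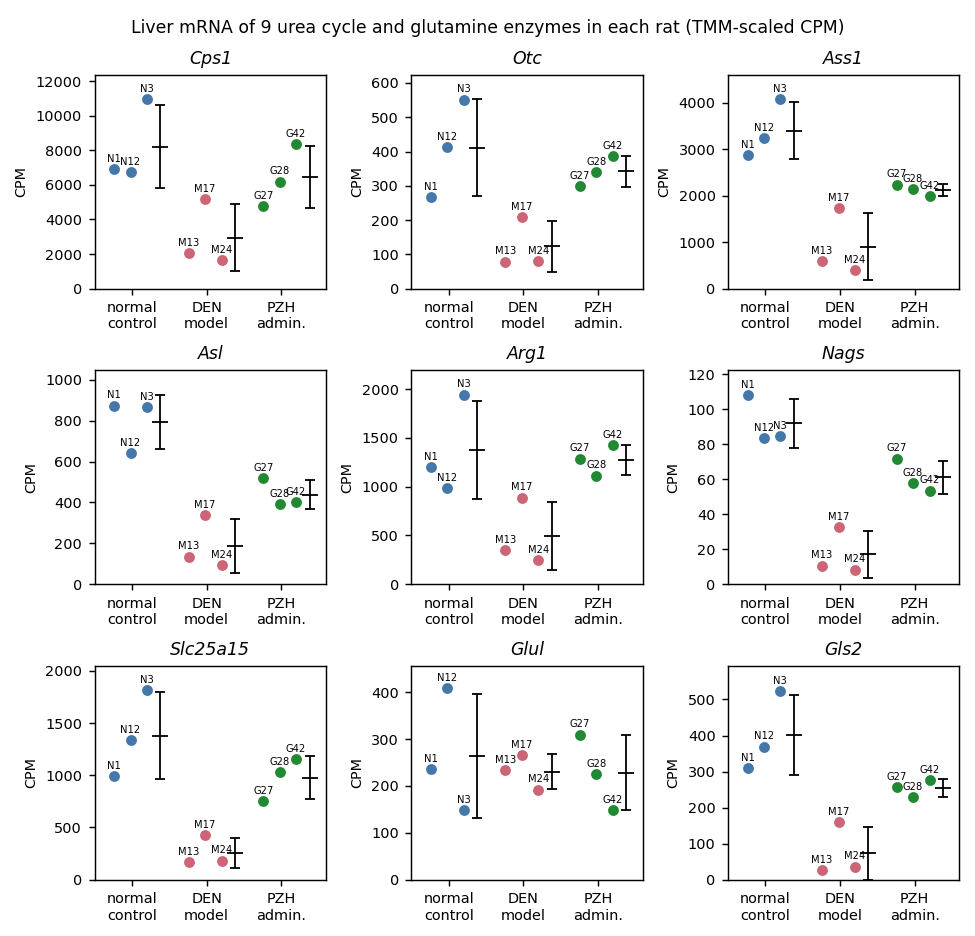
TMM-scaled CPM (vertical axes, each starting at 0) of the 9 genes in each of the 9 rats, with 1 point a rat, and a bar for the group mean with its SD (n = 3). For 8 of the 9 genes every DEN model rat sits below every normal control rat, M17 is the highest DEN model rat in all 9 panels, and Glul is the gene whose 3 groups overlap.

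The comparison of DEN model with normal control liver asks which genes move in the carcinogen model. Of the 9 genes, 7 fell at an adjusted p under 0.05 and 0 rose, where 20.5% of the 14255 genes tested fell. Cps1 and Glul were those that did not pass. Under the study's own thresholds (absolute log2 fold change above 2 and unadjusted P under 0.001), 2 of 9 were lower, Nags and Slc25a15, against 3.49% of all genes. The median log2 fold change of the 9 genes was -1.90, beside 0.03 over all genes tested. Groups did not overlap, with the DEN model lower, for 8 of 9 genes and for 27.4% of all genes.

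Cps1, carbamoyl phosphate synthetase, makes carbamoyl phosphate from ammonia and is the rate-limiting enzyme of the cycle (chr9:74124016-74236274 in the file, protein coding). It was at 6890, 6739 and 10969 CPM in N1, N12 and N3, at 2065, 5158 and 1629.6 CPM in M13, M17 and M24, and at 4779, 6186 and 8375 CPM in G27, G28 and G42. All 3 DEN model rats were below all normal control rats, M17 by the least, and the PZH administration rats overlapped both other groups. The mean was 2951 ± 1924 CPM in DEN model against 8199.5 ± 2400 CPM in normal control rats, 2.75-fold lower with a log2 fold change of -1.46 ± 0.54 (SE). This missed the threshold in edgeR's quasi-likelihood test (adjusted p = 0.055). It passed in DESeq2 (adjusted p = 0.0020) and, in edgeR, without M17 (log2 fold change -2.14, adjusted p = 0.0022). Leaving out 1 rat could also make the fall smaller, with a range from -2.14 to -1.16.

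Nags makes N-acetylglutamate, without which Cps1 is inactive (chr10:90085559-90089693). It stood at 108, 83.5 and 84.5 CPM in N1, N12 and N3, at 10.5, 32.6 and 8.28 CPM in M13, M17 and M24, and at 71.9, 57.8 and 53.5 CPM in G27, G28 and G42. The 3 groups did not overlap with each other, with normal control highest and the DEN model lowest. Nags fell 5.31-fold in the DEN model (log2 fold change -2.41 ± 0.48, edgeR adjusted p = 0.0042).

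Otc joins carbamoyl phosphate to ornithine to give citrulline (chrX:13524607-13601069), and Slc25a15 is the carrier that brings ornithine into the mitochondrion for this step (chr16:74531564-74554529). Otc was at 268, 414 and 552 CPM in N1, N12 and N3, at 78.7, 209.5 and 81.3 CPM in M13, M17 and M24, and at 299, 339 and 387 CPM in G27, G28 and G42. Its DEN model rats lay below all other rats, while the PZH administration rats lay inside the normal control range. Otc fell 3.31-fold in the DEN model (log2 fold change -1.73 ± 0.45, edgeR adjusted p = 0.013). Slc25a15 was at 989, 1334 and 1814 CPM in N1, N12 and N3, at 166, 425 and 182 CPM in M13, M17 and M24, and at 749, 1029 and 1158 CPM in G27, G28 and G42. The DEN model rats were again the lowest, and PZH administration overlapped normal control. Slc25a15 fell 5.31-fold (log2 fold change -2.41 ± 0.45, edgeR adjusted p = 0.0032), the smallest adjusted p of the 9 genes.

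The cytosolic steps are carried by Ass1, which joins citrulline to aspartate (chr3:10327414-10375826), by Asl, which splits the product into arginine and fumarate (chr12:30165694-30178341), and by Arg1, the liver arginase that releases urea (chr1:21525421-21537863). Ass1 was at 2866, 3244 and 4069 CPM in N1, N12 and N3, at 588, 1726 and 391 CPM in M13, M17 and M24, and at 2237, 2144 and 1988 CPM in G27, G28 and G42. Asl was at 874, 640.1 and 868 CPM in N1, N12 and N3, at 135, 338 and 91.4 CPM in M13, M17 and M24, and at 520.2, 393 and 402 CPM in G27, G28 and G42. For both genes the 3 groups were separate, with PZH administration between the others. Asl fell 4.17-fold in the DEN model (log2 fold change -2.06 ± 0.47, edgeR adjusted p = 0.0079). Ass1 fell 3.72-fold (log2 fold change -1.90 ± 0.56, edgeR adjusted p = 0.023), a call that was lost without M13, M24, N12 or N3 (adjusted p of 0.054 to 0.091). Arg1 was at 1198, 987 and 1942 CPM in N1, N12 and N3, at 349, 888 and 244 CPM in M13, M17 and M24, and at 1288, 1113 and 1424 CPM in G27, G28 and G42. The gap between M17 and the lowest normal control rat was narrow, and the PZH administration rats lay inside the normal control range. Arg1 fell 2.76-fold (log2 fold change -1.46 ± 0.51, edgeR adjusted p = 0.045), a call that was lost without any rat but M17 (adjusted p of 0.060 to 0.14) and under either other filter on low counts (0.052).

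Gls2, the liver glutaminase (chr7:2605719-2621852), was at 309.8, 369 and 524 CPM in N1, N12 and N3, at 26.1, 159 and 36.5 CPM in M13, M17 and M24, and at 257, 228 and 277 CPM in G27, G28 and G42. The groups were separate, and M17 carried several times the level of the other DEN model rats. Gls2 fell 5.38-fold in the DEN model (log2 fold change -2.43 ± 0.65, edgeR adjusted p = 0.015), the largest fold of the 9 genes, and the call was lost without N3 (adjusted p = 0.053). The log2 fold change was -3.67 without M17, -2.02 without M13 and -2.10 without M24.

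Glul (chr13:71331052-71340229) was at 236, 409 and 148 CPM in N1, N12 and N3, at 234, 266 and 192 CPM in M13, M17 and M24, and at 309, 226 and 149 CPM in G27, G28 and G42. The groups overlapped, and the DEN model rats lay inside the normal control range. The fitted log2 fold change was -0.18 ± 0.36 (edgeR adjusted p = 0.71). Its direction was not stable: scaling by library totals alone gave 0.65 ± 0.35 (edgeR adjusted p = 0.13), and leaving out N12 gave 0.29. The pair of Glul windows printed above carries CCAAT matches, which the Cps1 and Otc windows lack. The Slc25a15 window and the first Gls2 window, of genes that fell, carry CCAAT too. This is a description of the sequences only.

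**Figure D2:**
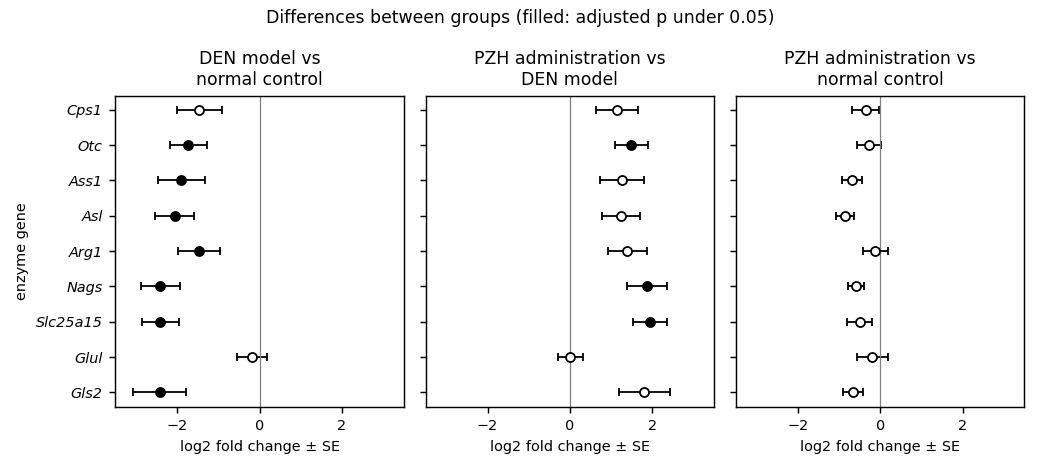
Fitted log2 fold change with its SE (horizontal axis) for each of the 9 genes in the 3 comparisons, from edgeR with TMM scaling on 3 rats a group, with filled points for an adjusted p under 0.05. In DEN model against normal control 8 genes lie between -2.43 and -1.46 and Glul, whose sign turns with library totals, at -0.18, and in PZH administration against DEN model 8 lie between 1.15 and 1.95 and Glul at 0.01.

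The comparison of PZH administration with DEN model liver asks which genes move with the medicine, and it shares its DEN model rats with the comparison before. Higher levels passed for 3 of 9 genes and lower levels for 0, where 8.72% of the 14272 genes tested were higher. Slc25a15 rose 3.85-fold (log2 fold change 1.95 ± 0.41, edgeR adjusted p = 0.019), Nags 3.63-fold (1.86 ± 0.49, edgeR adjusted p = 0.034) and Otc 2.82-fold (1.49 ± 0.40, edgeR adjusted p = 0.036).

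Values that did not pass had the same sign. Gls2 was at a log2 fold change of 1.81 ± 0.62 (edgeR adjusted p = 0.077), Arg1 at 1.39 ± 0.47 (0.073), Ass1 at 1.26 ± 0.53 (0.13), Asl at 1.25 ± 0.46 (0.092) and Cps1 at 1.15 ± 0.50 (0.15). Glul was at 0.01 ± 0.30 (edgeR adjusted p = 0.98). The median over the 9 genes was 1.39, beside 0.01 over all genes tested, and 7 of 9 genes had no overlap between the groups (higher after PZH administration), against 18.4% of all genes. By edgeR 7 genes had an unadjusted p under 0.05, against 34.9% of all genes in either direction, and by DESeq2 8 genes had an adjusted p under 0.05 with higher levels, against 12.7% of all genes. Glul was outside both. In data simulated for this comparison, with edgeR's fitted spread and 200 genes changed, DESeq2 called 36 unchanged genes and edgeR called 8. How many of the DESeq2 calls in the real counts were false cannot be read from this. Under the study's thresholds 0 of 9 genes passed in edgeR and 0 in DESeq2, against 2.43% and 4.54% of all genes.

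The count of 3 rested on the full set of rats. It was 1 without G27, which was Slc25a15, 0 without G28, G42, M13 or M24, and 8 without M17, where 10.9% of all genes were higher. The share of all genes that were higher moved too, and was 6.96% without G27, 3.42% without G28, 4.20% without G42, 0.822% without M13 and 1.91% without M24. The count under the study's thresholds became 6 without M17 (4.71% of all genes). Leaving out M17 from DEN model against normal control raised the count under the study's thresholds from 2 to 8. There 13.8% of all genes passed in either direction, a share not comparable with the 3.49% given above for lower genes only. The count became 1 without N1 and 0 without M13, M24, N12 or N3, where at least 8.41% of all genes passed in either direction. The count of adjusted calls in that comparison was 4 without N3, where 21.1% of all genes were lower, and between 5 and 8 without any other rat (13.3% to 19.9% of all genes lower). Without M17 the log2 fold changes there lay between -3.67 (Gls2) and -2.14 (Cps1), and those of PZH administration against DEN model between 1.81 (Cps1) and 3.03 (Gls2), for the 8 genes other than Glul.

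M17 was nearer to the normal control mean than M13 and M24 for 8 of the 9 genes, on the log2 scale. Over all genes M17 was the nearest of the 3 rats for 57.0%. For Cps1 the deviation from the normal control mean was -0.63 in M17 against -1.95 in M13 and -2.29 in M24, and for Gls2 it was -1.30 against -3.86 and -3.39. M17 also had the highest hepatocyte marker sum (83587 CPM) and the lowest bile duct marker sum (198 CPM) of the 3 DEN model rats. The enzymes varied between DEN model rats more than most genes did, with a median SD of 0.96 on the log2 scale against 0.21 over 14479 genes. Between PZH administration rats this was 0.22 against 0.28, and between normal control rats 0.40 against 0.27. Within the DEN model, Glul had the smallest SD of the 9 genes (0.23) and Gls2 the largest (1.36).

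PZH administration against normal control liver asks how far the levels stood from those of untreated rats. With edgeR, 0 of 9 genes passed, where 5.21% of the 13348 genes tested did, 4 of 9 had an unadjusted p under 0.05, against 18.5% of all genes, and DESeq2 passed 2 genes (Ass1 and Asl, both lower, against 3.18% of all genes). Log2 fold changes were below 0 for all 9 genes with TMM scaling, from -0.86 ± 0.23 for Asl (edgeR adjusted p = 0.069) to -0.12 ± 0.30 for Arg1 (0.89), with a median of -0.50 beside -0.02 over all genes. Arg1 turned to 0.14 with library totals. Ass1, Asl, Nags and Gls2 were below every normal control rat in every PZH administration rat, and 10.6% of all genes showed such a gap in this direction. The fitted values of these 4 were -0.68 ± 0.24 for Ass1, -0.58 ± 0.20 for Nags and -0.66 ± 0.25 for Gls2, beside that of Asl. Without G27, 1 of the 9 genes passed, where 9.73% of all genes did.

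The fold changes depend on what the libraries are scaled to, because the DEN model libraries differ in composition. TMM factors were 1.21 to 1.58 in DEN model, 0.731 to 0.799 in normal control and 0.863 to 0.941 in PZH administration rats. With library totals in place of TMM, the median of all genes moved by 0.87 in DEN model against normal control and by -0.67 in PZH administration against DEN model. The enzymes then stood at a median of -1.13 with 6 of 9 lower (edgeR, adjusted p under 0.05) in the former comparison, where 6.72% of all genes were lower, and at 0.81 with 3 of 9 higher in the latter, where 3.90% of all genes were higher. Cps1 was at -0.66 (edgeR adjusted p = 0.16) and Arg1 at -0.67 (0.16) in DEN model against normal control.

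A further scaling, chosen after the data were seen, set the geometric mean of the 10 hepatocyte markers equal in all rats. A value then reads as enzyme mRNA per hepatocyte marker mRNA. The markers fell unequally in DEN model against normal control, from a log2 fold change of -3.89 (Ttr) to -0.30 (Apoa1) with TMM. Values on this scale therefore depend on which markers were listed. For DEN model against normal control it placed Cps1 at 0.12 ± 0.30, Arg1 at 0.09 ± 0.36, Otc at -0.12 ± 0.39, Ass1 at -0.39 ± 0.33 and Asl at -0.50 ± 0.38, none of which passed (edgeR adjusted p of 0.21 to 0.81). Slc25a15 (-0.78 ± 0.37, edgeR adjusted p = 0.040) and Gls2 (-0.97 ± 0.40, edgeR adjusted p = 0.021) were lower on this scale too, and Nags stood at -0.87 ± 0.45 (0.059). Glul was higher at 1.58 ± 0.40 (edgeR adjusted p = 0.00015), which was below the median of all genes on this scale (1.86). In PZH administration against DEN model Glul was lower at -1.57 ± 0.44 (edgeR adjusted p = 0.0010), equal to the median of all genes (-1.57), and the other 8 genes lay between -0.12 and 0.62 with 0 passing. On this scale 80.7% of all genes were higher and 2.34% lower in DEN model against normal control, and 76.6% were lower after PZH administration. Under all 3 scalings, 6 of 9 genes kept a lower value in DEN model against normal control, and Cps1, Arg1 and Glul did not.

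**Figure D3:**
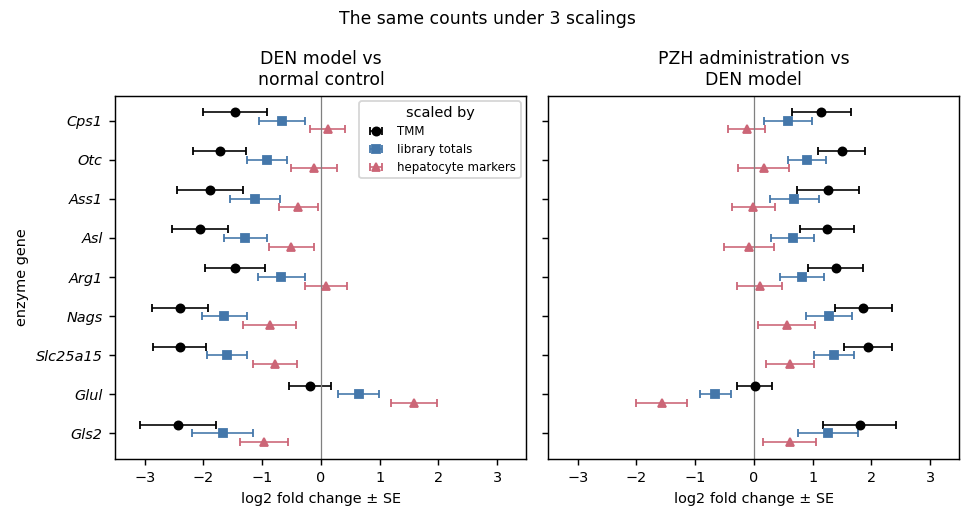
Log2 fold change with its SE for each gene when the same counts are scaled by TMM, by library totals or by hepatocyte markers, in DEN model against normal control (left) and PZH administration against DEN model (right). From TMM to hepatocyte markers, Cps1 moves from -1.46 to 0.12 and Glul from -0.18 to 1.58 on the left, while Gls2 stays below 0 at -0.97.

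The deposited FPKM gave another view of the rats. Between DEN model and normal control, 5 of 9 genes had no overlap (Ass1, Asl, Nags, Slc25a15 and Gls2, all lower), against 7.49% of all genes in this direction, and 4 overlapped. In PZH administration against DEN model, Otc, Nags, Slc25a15 and Gls2 were higher without overlap, and Glul was lower without overlap, at 107, 84.4 and 56.5 FPKM in G27, G28 and G42 against 140.1, 129.8 and 122 FPKM in M13, M17 and M24. Of all genes, 5.32% were higher and 53.7% lower without overlap in the FPKM of this comparison.

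Ratios of 2 genes within a rat depend on the scaling of the library only through the pseudocount. They were taken as log2 ratios of CPM + 1 and compared by an exact two-sided permutation test, which cannot go below p = 0.1 with 3 against 3 rats, so that no ratio could pass, and the 9 tests were adjusted together.

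Arg2, the mitochondrial arginase found mainly outside the liver (chr6:102311116-102338520), had 3, 2 and 2 counts in N1, N12 and N3, 23, 18 and 17 counts in M13, M17 and M24, and 11, 9 and 6 counts in G27, G28 and G42. Its pooled CPM was 4.62 times that of normal control in the DEN model, with a 95% interval of 2.11 to 12.0 that covers counting error only. The log2 ratio of Arg2 to Arg1 had means of -10.12, -7.84 and -9.72 in the normal control, the DEN model and the PZH group, 2.29 higher in the DEN model (exact permutation p = 0.1, adjusted p = 0.18), and with counts this low it depends on the added 1.

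Glul and Cps1 mark the opposite ends of the lobule. Their log2 ratio was -4.86, -4.04 and -6.20 in N1, N12 and N3, -3.13, -4.27 and -3.08 in M13, M17 and M24, and -3.94, -4.77 and -5.80 in G27, G28 and G42. The groups overlapped in all 3 comparisons. The mean was 1.54 higher in the DEN model than in normal control (exact permutation p = 0.2, adjusted p = 0.26) and differed by -1.34 between PZH administration and the DEN model (exact permutation p = 0.2, adjusted p = 0.26). Leaving out 1 rat moved the former difference to between 0.96 (without N3) and 2.04 (without N12), and the latter to between -1.79 (without G27) and -0.86 (without G42).

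**Figure D4:**
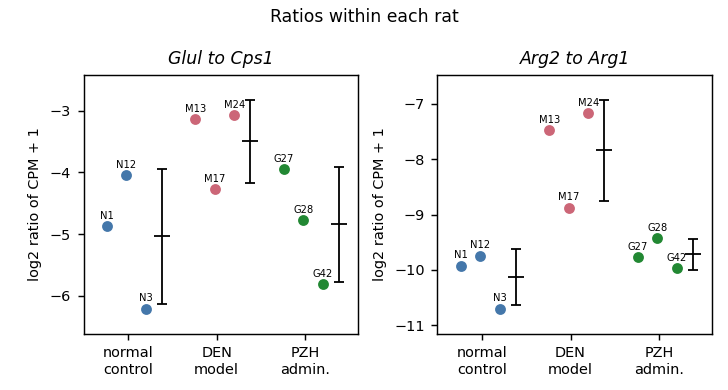
Within-rat log2 ratios of CPM + 1 (vertical axes) for Glul to Cps1 and Arg2 to Arg1, with 1 point a rat and a bar for the group mean with its SD (n = 3). The Glul to Cps1 ratio overlaps between the groups, from -6.20 in N3 to -3.08 in M24, and the mean Arg2 to Arg1 ratio is -10.12 in normal control and -7.84 in the DEN model.

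The lobule lists gave the context of Glul. Of 9 pericentral hepatocyte markers, Glul among them, 8 were tested in DEN model against normal control and 5 fell with 0 rising (edgeR, adjusted p under 0.05), where 20.5% of all genes fell, and their sum went from 3776 to 6236 CPM in normal control to 453 to 1066 CPM in DEN model rats, with 2296 to 4269 CPM after PZH administration. Of 9 periportal markers, which include Cps1, Ass1, Asl, Arg1 and Gls2, 8 fell and 0 rose, and the sum went from 18259 to 24281 CPM to 3022 to 9985 CPM, with 12888 to 15208 CPM after PZH administration. After PZH administration 4 pericentral and 2 periportal markers were higher than in the DEN model, where 8.72% of all genes were higher. Against normal control 0 pericentral markers passed and 1 periportal marker was lower, where 1.15% of all genes were lower. The tested pericentral markers that did not pass in DEN model against normal control, besides Glul, were Axin2, a target of Wnt signalling (log2 fold change -0.54 ± 0.35, edgeR adjusted p = 0.25), and Rhbg, an ammonia transporter (edgeR adjusted p = 0.29).

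Beyond the 9 genes, 44 further genes of ammonia, glutamine, arginine, ornithine and proline handling were listed, of which 42 had a row under the listed symbol. Against normal control, 11 of 41 tested rose and 19 fell in the DEN model, where 25.3% of all genes rose and 20.5% fell, and the median was -0.41. The split was 20 higher and 14 lower with library totals, where 57.0% of all genes were higher and 6.72% lower, and 22 and 4 when scaled to hepatocyte markers, where 80.7% were higher and 2.34% lower. The lowest values that passed were Slc7a2, a transporter of arginine and other cationic amino acids (log2 fold change -2.86 ± 0.57), Prodh2, a hydroxyproline dehydrogenase (-2.84 ± 0.59), Oat, the ornithine aminotransferase of pericentral cells (-2.74 ± 0.28), and Slc38a4, a neutral amino acid transporter (-2.56 ± 0.55), with edgeR adjusted p of 0.00026 to 0.0060. The highest included Pycr1, which closes proline synthesis (3.32 ± 0.42, edgeR adjusted p = 0.00063), and Slc1a5, a glutamine transporter common in tumours (3.27 ± 0.62, edgeR adjusted p = 0.0034). Pycr1 was at 0.305 to 0.703 CPM in normal control and 4.26 to 4.66 CPM in DEN model rats, and Slc1a5 at 0.168 to 2.37 and 9.31 to 19.6 CPM.

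Inducible nitric oxide synthase Nos2, which uses arginine, had 0, 1 and 0 counts in N1, N12 and N3, 46, 22 and 99 counts in M13, M17 and M24, and 0, 3 and 4 counts in G27, G28 and G42. Aldh18a1, which starts proline and ornithine synthesis from glutamate, had 0, 3 and 0 counts in the normal control, 30, 27 and 40 counts in the DEN model and 11, 3 and 12 counts in the PZH administration rats. Both rose in the DEN model (edgeR adjusted p = 0.0017 and 0.0055). The pooled CPM ratio was 93.1 for Nos2 (95% counting interval 16.5 to 3699) and 18.0 for Aldh18a1 (5.99 to 88.9). Library totals and hepatocyte markers moved the median of all genes up in this comparison, by 0.87 and 1.83. The direction of the genes that rose was therefore not put to a test by these scalings. Slc7a2, Prodh2, Oat and Slc38a4, named for the largest falls that passed, stayed lower under all 3 scalings. Hepatocyte markers turned the sign of 9 of the 41 listed genes tested in this comparison.

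After PZH administration against DEN model, 13 of 41 listed genes were higher and 5 lower, where 8.72% of all genes were higher and 10.3% lower, with a median of 0.53. The split was 7 and 13 with library totals, where 3.90% of all genes were higher and 39.9% lower, and 1 and 20 when scaled to hepatocyte markers, where 1.15% were higher and 76.6% lower. Higher were, among others, Slc1a2, a glutamate transporter of pericentral cells (2.30 ± 0.64), Slc7a2 (2.22 ± 0.57), Oat (1.98 ± 0.31) and Gamt, of creatine synthesis (1.82 ± 0.39), with edgeR adjusted p of 0.011 to 0.040. Lower were, among others, Nos2, Slc1a5 (-1.80 ± 0.31, edgeR adjusted p = 0.013) and Slc7a1, a cationic amino acid transporter (-1.33 ± 0.36, edgeR adjusted p = 0.039). Library totals and hepatocyte markers moved the median of all genes down here, by -0.67 and -1.58. The direction of Nos2, Slc1a5 and Slc7a1 was therefore not put to a test by these scalings. Slc1a2, Slc7a2, Oat and Gamt, named for the largest rises that passed, stayed higher under all 3 scalings. With hepatocyte markers Slc7a2 passed (1.00 ± 0.43, edgeR adjusted p = 0.028), while Slc1a2, Oat and Gamt did not (0.15 to 0.32). That scaling turned the sign of 18 of the 41 listed genes. The total of 18 was 24 without M17, 9 without G27, 3 without G28, 4 without G42, 2 without M24 and 0 without M13. Of all genes tested, 22.6% passed without M17, 14.9% without G27, 7.94% without G28, 8.22% without G42, 5.0% without M24 and 1.87% without M13.

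Against normal control, PZH administration left Pycr1 higher (2.87 ± 0.47, edgeR adjusted p = 0.011), Slc7a5, a transporter of large neutral amino acids, higher (1.20 ± 0.26, edgeR adjusted p = 0.033) and Slc25a22, a mitochondrial glutamate carrier, lower (-0.86 ± 0.20, edgeR adjusted p = 0.043) among 38 listed genes tested. Of all genes, 4.07% were higher and 1.15% lower in this comparison. Pycr1 was at 2.99 to 3.85 CPM in PZH administration rats, and Slc7a5 at 7.38 to 8.42 CPM against 3.13 to 3.69 CPM in normal control. Slc25a22 was at 227 to 284 CPM against 377 to 505 CPM, and its call was lost with library totals (log2 fold change -0.64, edgeR adjusted p = 0.11) and when scaled to hepatocyte markers (-0.59, edgeR adjusted p = 0.21), and also with at least 10 counts in every rat (edgeR adjusted p = 0.070) or in 1 fit over all 9 rats (0.14). The Slc7a5 call was lost without G28, G42, N1, N12 or N3 (edgeR adjusted p of 0.061 to 0.15). That of Slc25a22 was lost without G28, G42, N1 or N12 (0.13 to 0.21), and that of Pycr1 without N12 (0.0501). The total of 3 was 5 without G27, 2 without N3, 1 without G28, G42 or N1, and 0 without N12, where 1.51% to 9.73% of all genes passed.

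**Figure D5:**
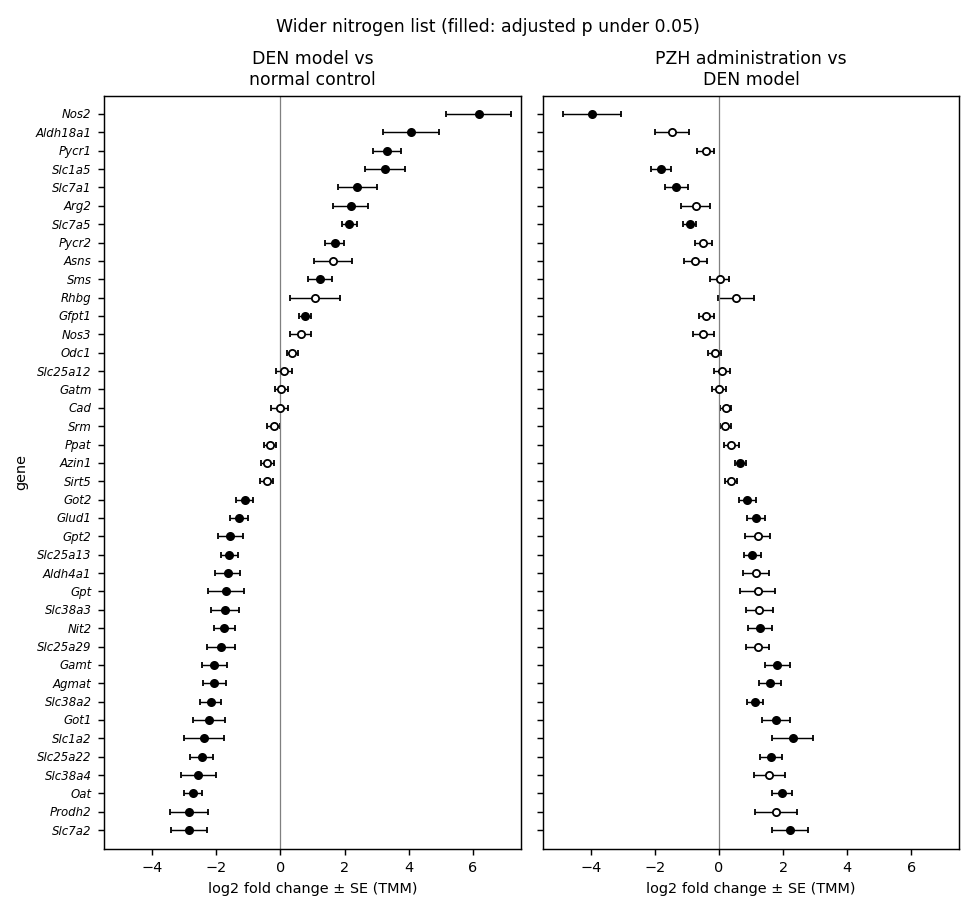
Log2 fold change with its SE (horizontal axes, TMM scaling) of listed genes of ammonia, glutamine, arginine, ornithine and proline handling, in DEN model against normal control (left) and PZH administration against DEN model (right), with filled points for an adjusted p under 0.05. Slc7a2 and Oat lie at -2.86 and -2.74 on the left and at 2.22 and 1.98 on the right, and Slc1a5 lies at 3.27 and -1.80.

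The genes whose profile over the 9 rats was most like that of Cps1 and of Glul were sought among 7748 genes with a mean of at least 10 CPM, by the root-mean-square difference of centred log2 values. For Cps1 these were Gas2 (0.19), Hgd, an enzyme of tyrosine breakdown (0.22), and Ptgfr, a prostaglandin receptor (0.22). Hgd was at 219 to 289.6 CPM in normal control, 54.6 to 146 CPM in DEN model, with M17 the highest, and 188 to 296 CPM in PZH administration rats. For Glul they were Psmb8, an immunoproteasome subunit (0.16), Xrcc1, a DNA repair scaffold (0.18), and Arvcf, a catenin (0.21). Psmb8 had a mean of 41.7 ± 15.0 CPM in normal control (SD, n = 3), with N12 the highest and N3 the lowest as for Glul, and was at 35.5 to 41.9 CPM in DEN model rats.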

How the data were processed

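mRNA-Seq libraries of 9 rat livers were compared in 3 groups of 3. The authors deposited, in 1 table, raw read counts per gene and FPKM (normalised by transcript length and library size), for which the submitters' processing notes name fastp, HISAT2 2.1.0, StringTie 1.3.3b and edgeR 3.30.3. The genome build of the file's coordinates, and how reads shared with similar or overlapping genes were counted, are not given in the sources used here. The table's fold change, P and Q columns were not used.

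Counts were tested with edgeR 4.0.16 in R 4.3.3 (filterByExpr, TMM, quasi-likelihood test, 6 rats a comparison, no covariates, Benjamini-Hochberg over all genes tested). Nothing says that rats were pooled, and p-values measure the spread between rats. DESeq2 1.42.0, library totals, other filters (none, or at least 10 counts in every rat), 1 fit over all 9 rats, the deepest library thinned, and leaving out each rat were alternatives. The scripts were tested on simulated data, with 200 genes given a log2 change of 2 among 13949 genes for DEN model against normal control. There the edgeR test recovered 162 of them and called 11 unchanged genes. DESeq2 recovered 174 and called 59 unchanged genes, so it called more genes falsely in this setting. The simulated spread came from edgeR's own fit, and far fewer genes changed than passed in the data. The simulation therefore does not rank the 2 tools on the real counts. CPM carry TMM scaling. The pseudocount in ratios was 1 CPM. Intervals and floors cover counting error only.

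All 9 members and the isoenzyme partner Arg2 were named, and of the wider list the 4 highest and 4 lowest log2 fold changes with an adjusted p under 0.05, and 3 genes nearest in profile to Cps1 and to Glul. The members and lists were chosen with earlier results of these data known. A gene of the wider list, with its ratio among the 9 ratio tests, is not reported here.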

Additional observations from a re-analysis of the deposited data

How the results depend on the processing

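No paired analysis was possible because the groups share no replicate numbers. Over the single genes, 259 of the values under the alternatives other than hepatocyte marker scaling kept direction and side of the threshold, 27 lost the call, 17 gained it and 12 changed sign. The count of adjusted calls in DEN model against normal control (7) was 3 when scaled to hepatocyte markers (Slc25a15 and Gls2 lower, Glul higher) and 4 to 8 when leaving out 1 rat. Under the study's thresholds (2) it was 0 with library totals, 4 with DESeq2, 0 with hepatocyte markers and 0 to 8 when leaving out 1 rat. In PZH administration against DEN model the adjusted count (3) was 8 with DESeq2, 1 with hepatocyte markers (Glul, lower, and none of the 3) and 0 to 8 when leaving out 1 rat, and the count under the study's thresholds (0) was 0 to 6. In PZH administration against normal control the adjusted count (0) was 2 with DESeq2 and 0 to 1 when leaving out 1 rat. The wider list went from 18 to between 0 and 24 in PZH administration against DEN model when leaving out 1 rat. In PZH administration against normal control it went from 3 to 9 with DESeq2 and 1 with at least 10 counts in every rat. The share of all genes that passed is not given here for these last settings. When leaving out 1 rat the count in that comparison was 0 to 5. The Glul to Cps1 log2 ratio of 0.20 in PZH administration against normal control ranged from -0.39 to 0.69 when leaving out 1 rat.

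Signs changed as follows. For Glul in DEN model against normal control, library totals gave 0.65, hepatocyte markers 1.58, and leaving out 1 rat -0.47 to 0.29. For Glul in PZH administration against DEN model, library totals gave -0.66, at least 10 counts in every rat -0.021, 1 fit over all 9 rats -0.017, hepatocyte markers -1.57, and leaving out 1 rat -0.28 to 0.26, with -0.10 without M24. In PZH administration against normal control, Glul was at 0.012 with hepatocyte markers and at -0.49 to 0.25 when leaving out 1 rat, with 0.029 without G42. Arg1 was there at 0.14 with library totals, 0.19 with hepatocyte markers and -0.33 to 0.25 when leaving out 1 rat, and Otc at 0.043 with hepatocyte markers and -0.53 to 0.026 when leaving out 1 rat. Hepatocyte markers gave Cps1 0.12 and Arg1 0.093 in DEN model against normal control, and Cps1 -0.12, Ass1 -0.0074 and Asl -0.081 in PZH administration against DEN model. The cause of these changes was not tested. The scaling to hepatocyte markers was chosen after seeing the data. With 3 rats a group, ratios cannot reach p under 0.1, and Arg2, Nos2 and Aldh18a1 are limited by their low counts.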

Other observations

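Slc38a5, a glutamine transporter, did not pass the filter on low counts. Its pooled counts were 0 in normal control, 33 in DEN model and 6 in PZH administration rats, with a floor of 3 counts a library. By rat these were 21, 3 and 9 counts in M13, M17 and M24, and 2, 4 and 0 in G27, G28 and G42. The DEN model and PZH administration rats overlapped.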
